A study of Hordeum vulgare with 21 samples.

Results

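The second day of germination of malting barley was examined by comparing whole grain after 2 days of germination (DoG2) with whole grain after 1 day (DoG1). The members are the 6 libraries of these stages, taken by their labels from the 21 libraries of the series, with 3 libraries (replicates A, B and C) at each stage. The other 15 libraries cover unmalted dry grain (Dry), grain out of the steep (DoG0) and days 3 to 5 (DoG3 to DoG5), again 3 at a stage. All grain was Hordeum vulgare cultivar Conrad, a spring malting barley, from one pooled lot. Both stages had the same steep of 38 h at 16 °C, with air rests at 18 °C, a steep cycle of 4 h and a final moisture of 45%. They then lay at 17 °C, DoG2 for one collection interval of 24 h longer than DoG1. Replicates of malted grain are micromalting batches of 110 g dry weight. The p-values rest on a spread between replicates of one lot that was estimated over all 21 libraries, with the unmalted dry ones among them. They thus do not measure the spread between day 1 and day 2 batches alone. That spread may be technical, and the p-values say nothing of other crops or cultivars. No allele or agent was involved.

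In a germinating cereal grain the embryo releases gibberellin, a plant hormone, into the surrounding tissue. The aleurone, the living cell layer around the dead starchy endosperm, then makes and secretes enzymes that break down starch, cell walls and storage protein, such as alpha-amylase, beta-glucanase and cysteine proteases. Meanwhile the embryo's rootlets and shoot grow on the released sugars and amino acids. Malting uses this programme and stops it with heat. Whole grain mixes all these tissues, so fewer cells of a type and less RNA per cell cannot be told apart. The gene IDs in the files carry no gene names, and 0 of the 35826 matched the reference table, so no ID is given a name, a function or a sequence here, and the tissue was not checked against marker genes. Genes are described by direction, abundance and level at the other stages, and 5 IDs are named.

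Total expected counts, the estimated reads per gene summed over a library, were 21252956 to 31582116 at day 1 and 28104928 to 30418742 at day 2. A count of 3, the limit for a gene without reads, equals 0.0950 to 0.141 CPM at these depths and covers counting error only. CPM is a count divided by the size of its library. After the filter on low counts 20637 IDs were tested. Over genes with at least 1 CPM, replicates had a median SD in log2 CPM of 0.21 at day 1 and 0.11 at day 2. Replicate A of day 1 lay nearest to the day 2 libraries: across genes its Pearson's r of log2 CPM with them was 0.932 to 0.947, against 0.905 to 0.923 for replicates B and C.

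Between the first and the second day 4057 genes rose and 3515 fell, 19.7% and 17.0% of those tested and 36.7% together (edgeR quasi-likelihood test, Benjamini-Hochberg adjusted p under 0.05). The median log2 fold change was 1.02 in the genes that rose and -1.07 in those that fell. The median abundance of the rising genes went from 11.2 TPM, an abundance per transcript length that sums to the same total in every library, to 21.9 TPM. That of the falling genes went from 22.1 to 9.05 TPM. In 4010 of the rising genes all 3 day 2 libraries lay above all 3 day 1 libraries, and in 3298 of the falling genes all lay below. Among all tested genes 28.1% were fully separated upwards and 25.2% downwards. The balance of directions depended on the scaling: scaled by library size alone, 3253 genes were higher and 4534 lower at day 2. In limma on log2(TPM + 1) these numbers were 2936 and 5143. The median over all tested genes of the log2 fold change was -0.12 and -0.14 in these settings, against -0.01 as reported, so all directions are relative to the transcript pool. Without DoG1 replicate A the counts were 4053 and 3616. Over the fits that left out 1 of the 6 libraries, rises ran from 3313 to 4053 and falls from 2450 to 3616.

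**Figure D1:**
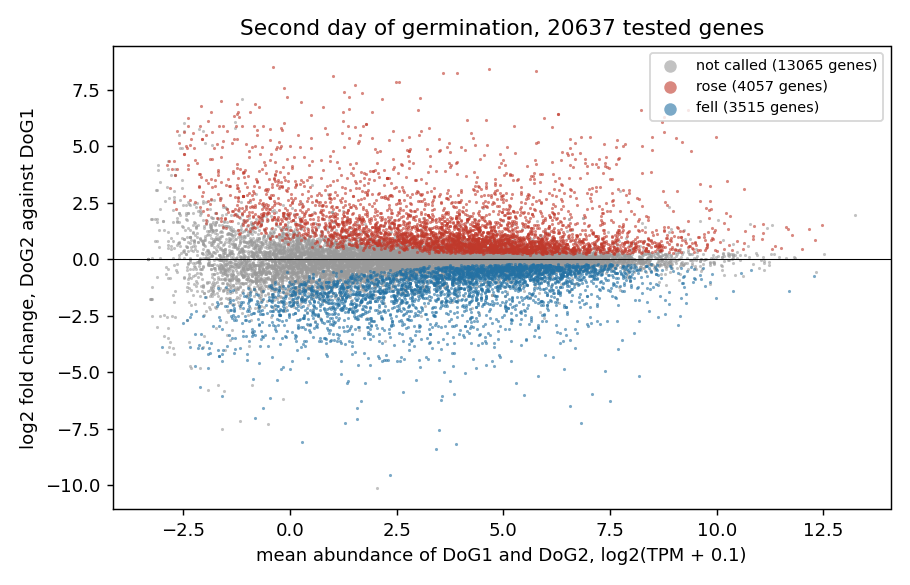
Each point is 1 tested gene, with mean abundance of both stages on a log2 scale of TPM plus 0.1 on the x axis and the log2 fold change of day 2 against day 1 on the y axis. Red points are the 4057 genes that rose, blue points the 3515 that fell and grey points the 13065 that were not called, and the points spread widest at low abundance.

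A majority of the genes that did not pass the test were bounded within a 2-fold change. Of 13065 such genes 7994, or 61.2%, had a 95% confidence interval that stayed within a 2-fold change in either direction. Another 1151 had a fitted change of at least 2-fold that did not pass. Among the 2027 tested genes with at least 100 TPM at day 1, 1124 were not called, and the interval of 980 of these, or 87.2%, stayed within 2-fold.

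How the share of rising genes varied with abundance depended on which libraries ordered the genes, and it is given without a test. By mean TPM of dry and out-of-steep grain, which hold no compared library, 29.3% of the 242 genes with at least 512 TPM rose and 19.4% fell. Between 8 and 32 TPM these shares were 18.8% and 18.2%, and below 0.5 TPM, with 2766 genes, 24.3% and 10.6%. Ordered by day 1 alone, 23.3% rose and 18.6% fell at 512 TPM or more, and 30.6% and 3.22% below 0.5 TPM. By the mean of all 21 libraries, most of which come from day 2 or later and so carry the change itself, 43.1% rose and 9.62% fell in the top group and 10.1% and 13.9% in the lowest. The orderings were added after the data were seen, and the day 1 ordering uses libraries of the comparison.

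The transcript pool of each day 2 library was more concentrated in few genes than that of each day 1 library. The 10 most abundant genes held 4.60%, 4.92% and 4.65% of TPM in the day 1 libraries and 6.41%, 6.69% and 6.04% in the day 2 libraries. By expected counts the mean share moved less, from 4.48% to 5.53%. The 2 most abundant IDs of day 2, described below, gained 10717 and 4947 TPM. Both had partly fractional counts, and the first did not pass the test. The 100 most abundant held 19.2% ± 0.577 at day 1 and 22.9% ± 0.639 at day 2 (SD, n = 3 each). In turn 50% of TPM was made up by 957, 876 and 923 genes at day 1 and by 715, 669 and 728 genes at day 2. The 2 stages did not overlap in any of these 3 measures. The exact two-sided permutation p was 0.1 for each, before and after Benjamini-Hochberg adjustment, the smallest that 3 against 3 libraries can give, so this design cannot reach 0.05.

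Between the mean profiles of days 1 and 2, 20.3% of all TPM changed hands, measured as the summed gains of the genes that gained. Single day 1 and day 2 libraries differed by 17.4% to 24.5%. Replicates of day 1 differed from one another by 9.44% to 11.4% and those of day 2 by 3.94% to 6.46%, so every pair across the stages differed by more than any pair within them. The following step, day 2 to day 3, moved 7.69% between mean profiles and shares the day 2 libraries with this one.

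On the TPM scale, gains went to fewer genes than losses came from. The gains of 9751 genes summed to 203211 TPM, and 101 of these genes made up 50% of it. The equal loss was spread over 16265 genes, of which 508 made up 50%. Because TPM sum to the same total, large gains of some genes lower the TPM of others. The numbers of gaining and losing genes therefore depend on this scale. The median log2 fold change was -0.14 in limma on log2(TPM + 1) and -0.01 in the main fit, where 4057 genes rose and 3515 fell. The 10 largest gains held 17.3% of the total and the 10 largest losses 7.88%. Of the 100 largest gains 88 passed the test as a rise, against 19.7% of all tested genes, and of the 100 largest losses 64 passed as a fall, against 17.0%. Because these lists were ranked on the same libraries, their counts only describe them. Shared reads were frequent in both: 64 and 57 of the 100 had fractional expected counts, which mark reads split between similar genes, compared with 18.5% of tested genes. How such reads were divided among copies limits what is said of any single ID in these lists.

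**Figure D2:**
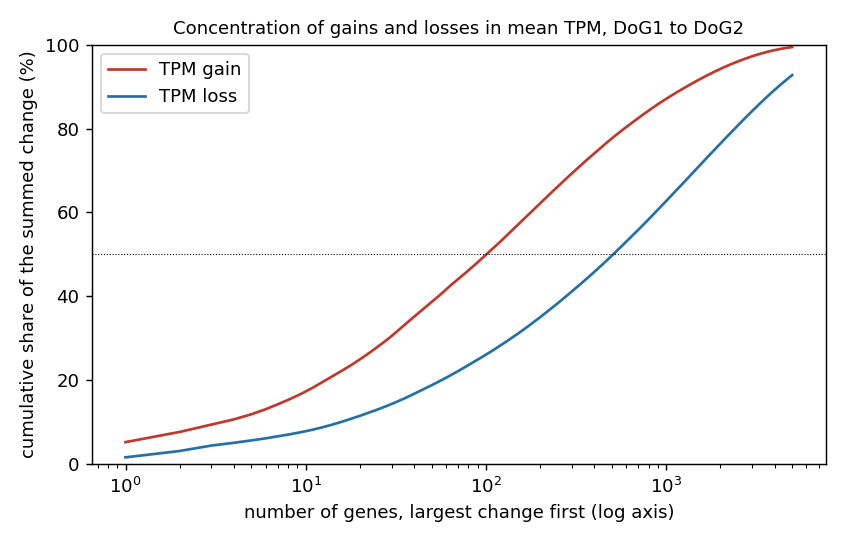
The x axis counts genes from the largest change downwards on a log axis, and the y axis is the cumulative share of the summed gain (red) or loss (blue) in mean TPM from DoG1 to DoG2. The red curve crosses the dotted line at 50% with 101 genes and the blue curve with 508.

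The list of most abundant genes was renewed in part. Of the 100 genes with the highest mean TPM at day 1, 71 were also among the 100 highest at day 2. Single libraries shared 65 to 72 of their top 100 across the stages, 82 to 84 within day 1 and 92 to 97 within day 2. Of the 29 genes that entered, 25 passed the test as a rise, against 19.7% of all tested genes. Of these 29, 22 were still among the top 100 at day 5 and 6 had been among the top 100 in dry grain. Of the 29 that left, 8 passed as a fall, against 17.0% of all tested genes, and 4 were back among the top 100 at day 5. Entry and exit were set by the same libraries as the test, so these counts of calls only describe the list. Among the 71 that stayed, 45 were not called, a share close to the 13065 of 20637 among all tested genes.

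Genes that rose held 20.0% ± 1.77 of TPM at day 1 and 36.9% ± 1.25 at day 2, and genes that fell held 21.7% ± 1.79 and 10.3% ± 0.795 (SD, n = 3 each). These values follow from the choice of genes and are given as a description. With genes called after scaling by library size alone, the rising genes held 14.6% and 30.2% and the falling genes 29.3% and 15.6%. The other stages were not compared in this choice, but their libraries share its filter on low counts and its estimate of spread. There the rising genes held 27.8% ± 2.06 of TPM in dry grain and 14.6% ± 0.459 out of the steep. They then held 39.2% ± 0.903, 40.9% ± 0.573 and 40.9% ± 0.957 at days 3, 4 and 5. All day 2 libraries lay above all dry libraries, and all libraries of days 3 to 5 lay above those of day 2. The falling genes held 16.0% ± 1.95 in dry grain and 27.5% ± 1.63 out of the steep. At days 3, 4 and 5 they held 9.56% ± 0.691, 8.97% ± 0.157 and 9.34% ± 0.217.

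The median gene in each group showed the same order on a log scale. Set against mean dry grain, the median rising gene stood at a log2 level of -0.73 ± 0.02 after the steep and -0.34 ± 0.12 a day later, then at 0.58 ± 0.03 at day 2 and 0.73 ± 0.03 at day 5. The median falling gene stood at 0.65 ± 0.04, 0.58 ± 0.18, -0.31 ± 0.05 and -0.50 ± 0.07 (SD over 3 libraries). The median gene not called lay between 0.03 and 0.18 at every stage after dry grain.

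**Figure D3:**
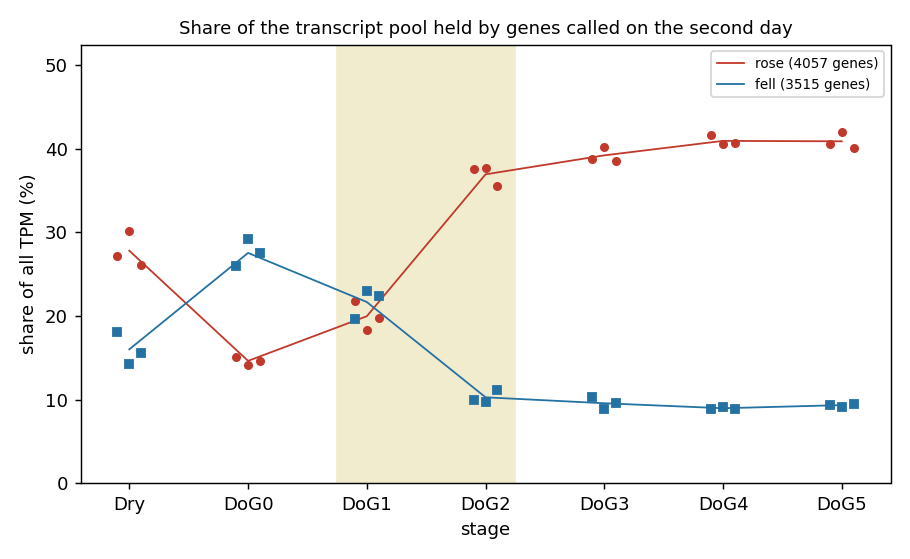
The y axis is the share of all TPM held by the genes that rose (red circles) or fell (blue squares) on the second day, at the 7 stages on the x axis. Each symbol is 1 library, lines join stage means and the shaded band marks the compared stages, where the curves cross: the rising genes went from 14.6% out of the steep to 36.9% at day 2.

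Libraries of one stage differed in how near they lay to the later days. The median rising gene lay below its mean of days 3 to 5 by a log2 difference of -1.04, -1.35 and -1.16 in day 1 replicates A, B and C. In the day 2 replicates the difference was -0.18, -0.17 and -0.22. For the falling genes it was 0.87, 1.18 and 1.29 at day 1 and 0.12, 0.11 and 0.21 at day 2. Replicate A was the day 1 library nearest to the later days in both groups, and replicate C the day 2 library farthest from them. The part this plays in the second-day calls was not tested beyond the counts without each library.

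Rising genes had often fallen during the steep, a comparison of out-of-steep with dry grain that shares no library with the second day. Of the 4057 rising genes 2394, or 59.0%, fell at steeping and 388, or 9.56%, rose, whereas 32.0% of all tested genes fell there and 29.2% rose. Among the 3515 falling genes the order was the opposite, with 1756 that rose at steeping and 463, or 13.2%, that fell. By limma on log2(TPM + 1), under which 14.99% of all genes fell at steeping and 46.5% rose, 40.9% of the rising genes had fallen and 66.7% of the falling genes had risen. Without Dry replicate A, the dry library with the lowest level of both named rising IDs, these shares were 56.7% and 48.7%. Of all tested genes 30.0% fell and 27.5% rose at steeping in that setting.

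Split by their steeping call, the rising genes differed greatly in weight. Each class was chosen by its change from dry to out-of-steep grain and from day 1 to day 2. Its direction over those steps thus follows from the choice. The levels at days 3 to 5 were not compared in it, but these libraries share the estimate of spread. The 2394 genes that had fallen at steeping made up 25.5% ± 1.86 of the TPM of dry grain and 10.7% ± 0.252 of that out of the steep. At day 1 they made up 14.4% ± 1.13, at day 2 27.7% ± 0.970 and at day 5 32.5% ± 1.04. The 1275 genes not called at steeping went from 1.81% ± 0.523 in dry grain and 4.12% ± 0.488 at day 1 to 7.24% ± 0.281 at day 2, with 6.48% ± 0.0690 at day 5. The 388 genes that had also risen at steeping never held more than a mean of 2.06%, at day 4 (SD, n = 3 each). Most of the TPM gained by rising genes on the second day thus lay in the class that had fallen at steeping.

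The falling genes, whose classes were chosen in the same way, split the other way. The 1756 genes that had risen at steeping made up 4.46% ± 0.618 of TPM before malting and 17.3% ± 1.18 after the steep, then 12.6% ± 0.858 at day 1 and 6.05% ± 0.440 at day 2. They stayed between 5.11% and 5.53% on days 3 to 5. The 1296 genes not called at steeping went from 7.02% ± 0.307 after steeping to 6.33% ± 0.814 at day 1, and had 2.83% ± 0.250 at day 2. Those 463 genes that had fallen at steeping had 7.46% ± 2.52 before malting, 2.74% ± 0.302 at day 1 and 1.39% ± 0.112 at day 2 (SD, n = 3 each).

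**Figure D4:**
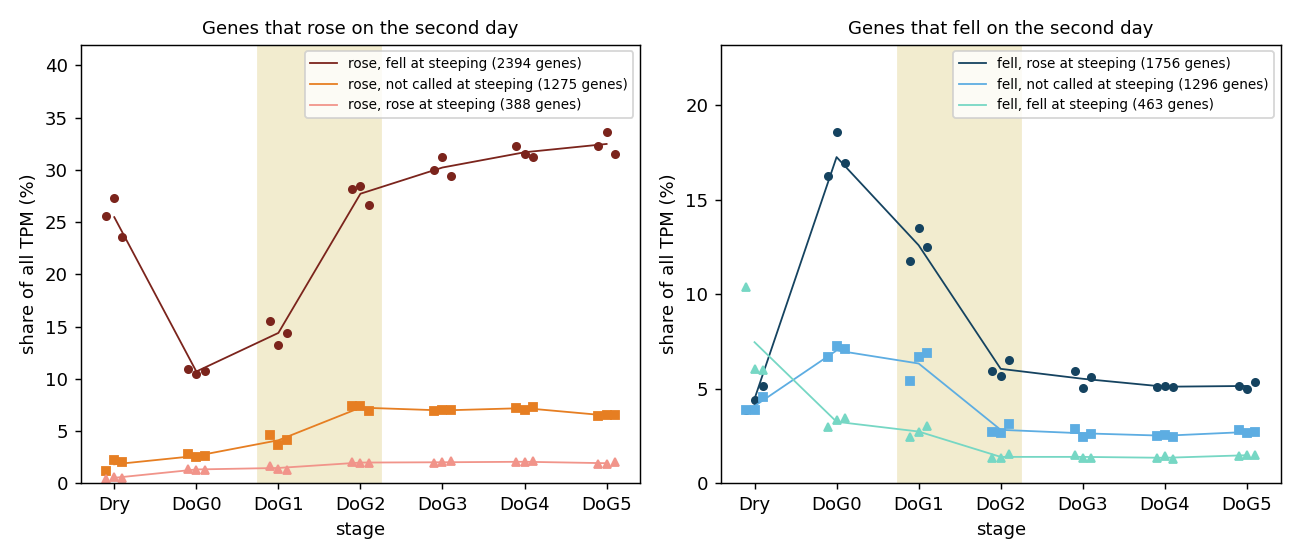
The left panel divides the genes that rose on the second day, and the right panel those that fell, by their call at steeping, which fixes the direction from Dry to DoG0 and from DoG1 to DoG2; the y axes show each class's share of all TPM at the 7 stages. Symbols are single libraries, lines join stage means and the shaded band marks DoG1 and DoG2; among the rising genes the class that had fallen at steeping lies highest, at 25.5% in dry grain and 27.7% at day 2.

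Most second-day directions were also seen at day 3 relative to out-of-steep grain. That comparison holds no library of days 1 or 2, but it spans the second day and so includes its change. Its shares describe the net change from the steep to day 3 and are not separate support. In it 3533 of the 4057 rising genes, or 87.1%, rose and 81 fell, against 36.2% and 31.0% of all tested genes. Of the 3515 falling genes 2656, or 75.6%, fell and 153 rose. Between days 3 and 5 few genes were called at all, 0.431% upwards and 1.01% downwards of those tested. Of the rising genes 47 rose further and 60, or 1.48%, fell, and of the falling genes 36 fell further and 12, or 0.341%, rose.

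At the median, genes that changed by at least 8-fold were rarer than the tested genes, whose median was 10.4 CPM at day 1 and 10.7 CPM at day 2. A low level at the lower stage follows in part from the choice of large changes. Transcripts of 471 genes, 2.28% of those tested, rose by at least 8-fold, from a median of 0.163 CPM at day 1 to 3.46 CPM at day 2. The number depended on the fit, with 156 genes by limma on log2(TPM + 1), 295 on log2(TPM + 0.1) and 298 among genes with whole counts. The median stood at 0.309 CPM in dry grain, 0.09998 CPM after the steep, 4.70 CPM at day 3 and 6.35 CPM at day 5. In 267 of them, or 56.7%, the mean lay under 1 CPM in both dry and out-of-steep grain, compared with 17.8% of all tested genes. Other members were well represented in dry grain: the 471 genes together held 8.18%, 7.70% and 5.61% of TPM in the dry libraries A, B and C. They held 0.503% ± 0.0732 after the steep and 0.309% ± 0.0908 one day on, then 4.35% ± 0.362 at day 2 and 6.87% ± 0.430 at day 5 (SD, n = 3 each). At day 2, 64 of the 471 had at least 100 CPM, a larger share than the 2043 of the 20637 tested genes. In day 3 against out-of-steep grain, which spans the second day, 450 of the 471, or 95.5%, rose, against 36.2% of all tested genes. Fractional counts occurred in 168 of the 471, or 35.7%, against 18.5% of all tested genes.

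At least 8-fold falls were seen in 286 genes, 1.39% of those tested, and in 94 by limma on log2(TPM + 1). Their median went from 0.658 CPM in dry grain to 1.42 CPM after steeping and 3.34 CPM at day 1, and was 0.224 CPM at day 2 and 0.218 CPM at day 5. In 114 of them, or 39.9%, the mean was under 1 CPM in both dry and out-of-steep grain, compared with 17.8% of all tested genes. In day 3 against out-of-steep grain, which spans the second day, 181 of the 286, or 63.3%, fell and 14 rose. Of all tested genes 31.0% fell and 36.2% rose there, and of all falling genes 75.6% fell. Together the 286 genes held 1.33% ± 0.354 of TPM after steeping, 0.922% ± 0.284 at day 1 and 0.0546% ± 0.0323 at day 2 (SD, n = 3 each).

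Complete appearance or loss was rare. Only 4 tested genes had no count in any day 1 library and a mean of at least 1 CPM at day 2, and the highest reached 1.66 CPM. The reverse was seen in 3 genes, 2 of which passed the test as a fall. The highest of the 3, at a mean of 5.26 CPM at day 1, did not pass (edgeR adjusted p = 0.108). Its libraries of the 2 stages were not fully separated, and its counts were partly fractional. With a minimum of 0.5 CPM the numbers of genes that appeared and were lost were 10 and 8. A requirement of no count in 3 deep libraries is strict, and genes with a few counts are not among them.

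The ID with the largest fold rise among those with at least 50 CPM at day 2 was HORVU.MOREX.r3.3HG0305460, coded on chromosome 3H. It had 0.599, 0.120 and 0.145 CPM in day 1 replicates A, B and C, 23 counts in all, and 65.4, 109 and 77.6 CPM in the day 2 replicates. The stages were far apart, with no overlap (log2 fold change of 8.32 with SE 1.04, edgeR adjusted p = 9.96e-06). In dry grain it had 2.07, 43.9 and 29.2 CPM in replicates A, B and C, and out of the steep 0.532 ± 0.737 CPM (SD, n = 3). It thus had a message in dry grain that was nearly gone after steeping and on the first day, and at day 5 it stood at 57.7 ± 14.7 CPM. Its expected counts were whole numbers in all libraries.

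HORVU.MOREX.r3.6HG0617510, coded on chromosome 6H, had the largest gain in abundance among rising IDs. Its level was 3082, 2382 and 4095 TPM in day 1 replicates A, B and C and 8353, 8417 and 7629 TPM in the day 2 replicates. It moved from rank 11 to rank 2 of all genes by mean TPM. The log2 fold change was 1.53 (SE 0.44, edgeR adjusted p = 0.0105) and did not pass without DoG1 replicate B (1.39, adjusted p = 0.0501) or with limma on log2(TPM + 1) (1.39, adjusted p = 0.0514). Over its alternatives the adjusted p ran from 1.69e-05 to 0.0545. Day 2 was its highest stage: the mean was 1032 ± 53.0 TPM after steeping, 5801 ± 862 at day 3, 5102 ± 198 at day 4 and 3316 ± 487 at day 5 (SD, n = 3 each). Its counts were partly fractional, so reads were shared with a similar gene.

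Among falling IDs HORVU.MOREX.r3.3HG0321720, also coded on chromosome 3H, had the largest fold change of those with at least 50 CPM at day 1. It was a transcript of day 1: replicates A, B and C had 105, 66.3 and 173 CPM there and 0.357, 1.08 and 0.807 CPM at day 2 (log2 fold change -7.26, SE 0.62, edgeR adjusted p = 1.64e-07). Before and after, it was close to the limit of detection, with 6 counts over the dry libraries, 26 after steeping, 35 at day 3, 3 at day 4 and 16 at day 5. The rise on the first day, which shares the day 1 libraries, had a log2 fold change of 8.46 (SE 0.68, edgeR adjusted p = 1.47e-07). Its counts were whole in all libraries.

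The largest loss of abundance among falling IDs was that of HORVU.MOREX.r3.3HG0304680, coded on chromosome 3H. It had 3891, 6299 and 4762 TPM in day 1 replicates A, B and C and 1475, 1550.5 and 1899 TPM in the day 2 replicates, which did not overlap. It went from rank 4 to rank 53 by mean TPM (log2 fold change -1.43, SE 0.27, edgeR adjusted p = 0.000534). In dry grain it held 2664 ± 591 TPM and out of the steep 7365 ± 982 TPM, its highest stage, and at days 3 to 5 it lay between 1209 and 1578 TPM on average. Fractional counts show that it shared reads with a similar gene.

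**Figure D5:**
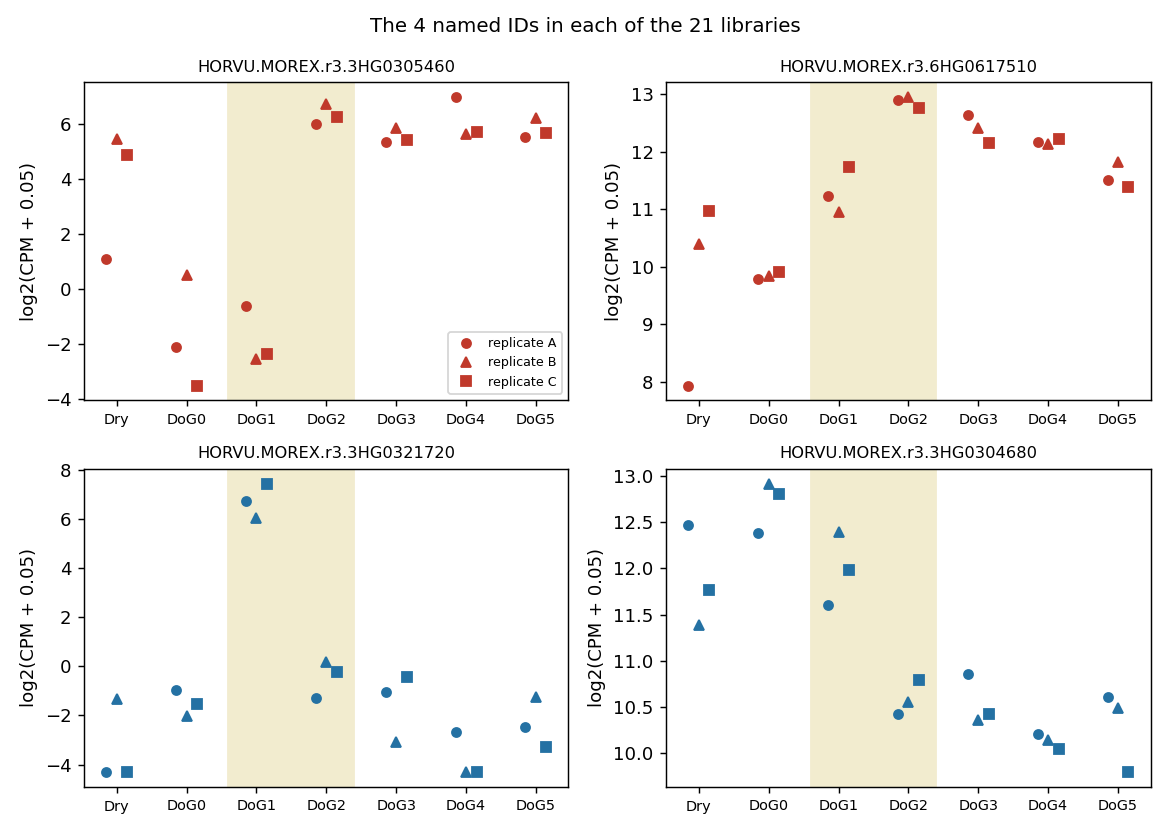
Each panel shows 1 ID, with the 7 stages on the x axis and log2(CPM + 0.05) on the y axis; symbols are the 3 replicates and the shaded band marks DoG1 and DoG2. HORVU.MOREX.r3.3HG0321720 stands high at day 1 alone, at 66.3 to 173 CPM, and HORVU.MOREX.r3.3HG0305460 stands lowest at DoG0 and DoG1.

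The most abundant gene at day 2 is outside these 4, because its change did not pass the test, and was chosen after its values were seen. HORVU.MOREX.r3.3HG0330820 had 5499.9, 2489 and 5051 TPM in day 1 replicates A, B and C and 13754, 16550.1 and 14888 TPM in the day 2 replicates. Its gain of 10717 TPM, 5.27% of all gains, was the largest of any ID. The libraries did not overlap, but the log2 fold change of 1.97 had an SE of 0.86 and an unadjusted 95% interval from 0.16 to 3.78 (edgeR adjusted p = 0.0823). Its level varied widely in dry grain, with 3.33, 312 and 39.9 TPM in replicates A, B and C. Out of the steep it had 83.7, 232 and 40.9 TPM. All 21 libraries share the estimate of spread in this fit, and what any stage contributed to this result was not tested. The ID kept 10567 ± 2146 TPM at day 5 (SD, n = 3), and it shared reads with a similar gene.

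Genes that changed by large factors tended to have neighbours that did so too. With IDs ordered by their running number within a chromosome code, 13.8% of genes that rose by at least 8-fold were followed by a tested gene that also did, against 2.28% of all tested genes on chromosomes. For all rises the share was 23.9% against 19.7%. Falls of at least 8-fold were followed by another in 9.09% of cases, against 1.39%, and all falls in 20.4%, against 17.1%. When only genes with whole counts in all libraries were fitted, so that genes with shared reads were left out, the 8-fold shares were 8.39% against 1.77% for rises and 4.59% against 1.30% for falls. The longest run of neighbours that all rose by at least 8-fold held 6 genes, and the longest that fell 4. Among genes with whole counts the longest runs held 3 and 2.

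The share of changed genes varied little between chromosomes, compared here without a test. Rising genes made up 17.7% of tested genes on chromosome 7H and 20.97% on 1H, the lowest and highest of the 7 chromosomes, and falling genes 15.5% on 5H and 18.9% on 2H. Relative transcript length, taken by dividing the expected count by TPM, was also similar: the median was 0.939 for rising, 1.02 for falling and 0.979 for uncalled genes. In the fifth of genes with the shortest transcripts 19.1% rose and 13.8% fell, and in the fifth with the longest 15.8% rose and 17.7% fell. The median log2 fold change of the 5 length groups lay between -0.03 and 0.01.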

How the data were processed

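The authors deposited expected counts, estimated reads per gene that need not be whole, and TPM for 21 libraries. The submitters' processing notes list STAR and RSEM, with no role, and per the labels' protocols libraries were poly-A selected with a kit that keeps the strand. Genome build, annotation and the strand setting: not given in the sources used here. Expected counts were rounded, filtered by stage with filterByExpr (at least 10 counts in 3 libraries and a total of 15; 15189 IDs left out) and scaled by TMM. All 21 libraries entered one edgeR 4.0.16 quasi-likelihood fit with 7 stage means in R 4.3.3, and DoG2 was compared with DoG1, with Benjamini-Hochberg adjustment over 20637 genes and a threshold of 0.05. Standard errors are the absolute log2 fold change over the root of its F statistic, and 95% intervals use the moderated degrees of freedom. CPM use TMM-scaled sizes, and log2 CPM a prior count of 2. Counts were called whole within 1e-09. Relative length needed 10 counts and 0.5 TPM in a library. The fit was tested on simulated data.

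Named IDs had an adjusted p under 0.05 and no overlap between stages: in each direction the largest fold change, with 50 CPM or more at the higher level, and the largest change in mean TPM. Comparisons, this rule and the lists were chosen with earlier results of these data known. Gene lists written by name could not be matched to IDs. Limma 3.58.1 and DESeq2 1.42.0 were used for alternatives. Replicates of one stage differed by more than sampling noise, with a chi-square per degree of freedom of 8.60 to 47.4. No sequencing batch is given in these sources.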

Additional observations from a re-analysis of the deposited data

How the results depend on the processing

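The number of changed genes, 7572, stayed between 5863 and 8402 over 19 alternatives: 5863 to 7669 when 1 library was left out, 8244 with DESeq2, 7676 with the 6 libraries alone, 7126 without a filter on low counts and 7895 with the length trend removed. Rising genes numbered 3313 to 4053 and falling genes 2450 to 3616 when 1 library was left out. Of the 7572 calls, 7500 were kept in the same direction with DESeq2, 6767 with library size only and 6345 with limma on log2(TPM + 1). At least 8-fold, 156 genes rose and 94 fell with that limma fit, against 471 and 286; 295 rose with log2(TPM + 0.1) and 298 among genes with whole counts.

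The replicate block gave 8402 genes with the 18 malted libraries and 5926 with the 6 libraries. Same-letter libraries of days 1 and 2 did not deviate together (Pearson's r across 16633 genes of 0.10, -0.20 and -0.26 for A, B and C), and only the A pair correlated best with its own letter. This check covered days 1 and 2 alone. The main fit had no block because the labels do not say that a letter follows one malting run.

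Genes without a count at day 1 numbered 10 at a minimum of 0.5 CPM and 0 at 5 CPM. By expected counts the 10 most abundant genes held 4.48% and 5.53% at the 2 stages. The alternatives for the steeping call and the orderings by abundance were chosen after seeing the data; with library size only 54.5% of rising genes had fallen at steeping, against 25.4% of all genes. Genes under 1 CPM are limited by depth.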
